A study of Homo sapiens with 4 samples.

Results

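Transcripts of the S100 calcium-binding protein family were followed in FaDu cells, an established line of human hypopharyngeal squamous carcinoma. The members were 10 genes of chromosome 1 chosen by name, S100A2, S100A4, S100A6, S100A7, S100A8, S100A9, S100A10, S100A11, S100A14 and S100A16, out of 62077 rows of the expression table. All 10 were found in the table, and 9 had a mean FPKM (fragments scaled by exon length and sequencing depth) of at least 1 over the libraries. S100A7 did not. The study asked which genes respond to hypoxia and how that response depends on TET1, a dioxygenase that oxidises 5-methylcytosine in DNA. Polyadenylated RNA of 4 groups was sequenced, with 1 library in each: normoxia with a scrambled hairpin (N-scr), normoxia with TET1 knockdown (N-si), hypoxia with the scrambled hairpin (H-scr) and hypoxia with TET1 knockdown (H-si). Hypoxia lasted 19 h at 1% O2, 5% CO2 and 94% N2. All groups carried a lentiviral short hairpin RNA vector, called scrambled or TET1-si in the labels, so none was an uninfected culture. The study's methods describe cells assayed within days of infection and its text also calls the FaDu lines clones, and neither says whether each was 1 clone.

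With 1 library per group, differences could not be set against replicate error and no p-value was computed. Changes are differences of log2(FPKM + 0.1), folds are ratios of FPKM without the 0.1, and intervals are exact 95% counting intervals of the ratio on the log2 scale, built from approximate read numbers recovered from the FPKM. These intervals cover counting error only and not differences between cultures. A gene is called higher or lower at a 2-fold change, which is 1 on the log2 scale, among the 15057 genes averaging at least 1 FPKM. Recovered depth was lowest for H-si (22500000 reads) and highest for N-si and H-scr (24600000). TET1 itself was listed at 0.129 FPKM in N-scr against 0.0493 in N-si, then 0.331 in H-scr against 0.122 in H-si, so both TET1-si libraries held less of it than their scrambled partner, on 11 to 77 approximate reads.

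S100 proteins are small proteins with a pair of EF-hand calcium-binding loops. Most form dimers, open a hydrophobic patch when calcium binds, and dock there onto partner proteins such as annexins, myosin and cytoskeletal regulators. Several are also secreted and signal through receptors including AGER (RAGE) and TLR4. In squamous epithelium many of them are keratinocyte proteins, encoded in a cluster on the long arm of chromosome 1 beside the genes of the cornified envelope, and S100A4 is widely used as a mesenchymal and metastasis marker. S100A8 and S100A9 form calprotectin, which sequesters zinc and manganese and is abundant in myeloid cells and in stressed keratinocytes.

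The upstream sequences of the members that changed at least 2-fold differed in their content of CG dinucleotides, the bases at which TET1 acts. Sequences came from RefSeq (GRCh38.p14, a different build from the hg19 loci given further on), as windows from 250 bases before to 50 after each annotated start, and all 10 members were matched, with 14 windows. The 250 upstream bases of 5 members are shown 5′ to 3′ on the gene's strand, 4 that were higher in both hypoxia libraries and S100A14 as the member with the highest TET1-si response under hypoxia, with each CG in capitals. S100A8 has 3 overlapping windows, of which the middle start is shown. The positions are chr1:153357604-153357853 (plus strand) for S100A9, chr1:153391074-153391323 (minus strand) for S100A8, chr1:153545807-153546056 (minus strand) for S100A4, chr1:153535992-153536241 (minus strand) for S100A6 and chr1:153616326-153616575 (minus strand) for S100A14.
S100A9: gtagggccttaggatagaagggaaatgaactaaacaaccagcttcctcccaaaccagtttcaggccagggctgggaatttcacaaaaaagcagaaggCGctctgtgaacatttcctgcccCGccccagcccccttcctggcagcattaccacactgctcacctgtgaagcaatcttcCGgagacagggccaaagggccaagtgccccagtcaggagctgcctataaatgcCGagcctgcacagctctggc
S100A8: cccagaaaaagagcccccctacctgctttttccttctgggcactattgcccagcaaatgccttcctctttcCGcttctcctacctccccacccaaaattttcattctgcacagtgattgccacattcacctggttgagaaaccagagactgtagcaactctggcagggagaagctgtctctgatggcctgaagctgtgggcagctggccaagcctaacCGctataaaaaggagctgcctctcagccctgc
S100A4: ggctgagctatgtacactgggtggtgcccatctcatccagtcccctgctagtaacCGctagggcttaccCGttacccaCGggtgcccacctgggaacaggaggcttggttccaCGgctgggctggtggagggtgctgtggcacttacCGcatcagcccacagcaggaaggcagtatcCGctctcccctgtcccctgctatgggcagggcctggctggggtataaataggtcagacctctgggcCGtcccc
S100A6: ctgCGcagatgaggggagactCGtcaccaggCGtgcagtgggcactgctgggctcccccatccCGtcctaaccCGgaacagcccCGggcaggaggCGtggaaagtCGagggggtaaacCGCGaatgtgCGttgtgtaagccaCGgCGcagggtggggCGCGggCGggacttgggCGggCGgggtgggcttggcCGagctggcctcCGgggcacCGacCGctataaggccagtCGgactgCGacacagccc
S100A14: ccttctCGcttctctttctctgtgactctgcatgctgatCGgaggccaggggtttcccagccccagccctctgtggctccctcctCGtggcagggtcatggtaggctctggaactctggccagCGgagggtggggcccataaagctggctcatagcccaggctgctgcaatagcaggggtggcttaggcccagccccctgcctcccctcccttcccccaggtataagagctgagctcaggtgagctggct

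The stretches printed hold 4 CG for S100A9, 2 for S100A8, 7 for S100A4, 24 for S100A6 and 4 for S100A14. Only S100A6 among these 5 is dense in CG. Over whole windows the median was 5 CG for the members' 14 windows and 14 CG for all 35116 RefSeq windows, and at most 5 CG were found in 64.3% of the members' windows against 33.7% of all windows. The core of the hypoxia response element, ACGTG or GCGTG on either strand, lay in 5 of the 14 windows (35.7%) against 48.4% of all windows. These shares count windows and not genes. S100A2, S100A8 and S100A16 enter more than once, and the overlapping windows of S100A8 each held 2 CG and no core match. Since ACGTG and GCGTG each contain CG, a window poor in CG has fewer chances to hold one. Of the 4 members that were higher under hypoxia, S100A6 had 2 matches, 220 and 156 bases before its start, while the windows of S100A4, S100A8 and S100A9 held no match. The other matches were in S100A10, S100A11, 1 of the windows of S100A16 and 1 of the windows of S100A2. None of these genes was called in hypoxia against normoxia, though S100A10 missed the call narrowly in scrambled cells (log2 change 0.94). The AP-1 site TGANTCA was matched in 1 window (7.14%), that of S100A2, 52 bases before the start, against 7.71% of all windows. A match of these letters is a description of the sequence and not of binding, and no match says only that these letters are not in this window.

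The members spanned from among the most abundant transcripts of the cells to the limit of detection. S100A2, a member typical of basal keratinocytes, was the most abundant in each library, at 1688 FPKM in N-scr against 1959.8 in N-si, then 1739 in H-scr against 2076 in H-si, above at least 99.6% of the genes tested. S100A10, which holds annexin A2 in a tetramer and has lost calcium binding, came next at 525.0, 1047, 1008 and 1586 FPKM in the same order. S100A11, a partner of annexin A1, followed in normoxia and in H-scr and was passed by S100A6 in H-si, where S100A6 was listed at 567.8 FPKM and S100A11 at 510.9. Together S100A2, S100A10 and S100A11 made up 86.1% of the members' summed FPKM in N-scr against 82.7% in N-si, then 81.7% in H-scr against 78.2% in H-si. The sum itself was 3128 FPKM in N-scr against 4191 in N-si, then 4085 in H-scr against 5338 in H-si, which is 0.38%, 0.527%, 0.539% and 0.738% of each column's total. S100A9, S100A4 and S100A8 stood far lower, and S100A7 was listed at 0 in all but H-si, where 0.335 FPKM rests on about 2 reads. In the order of levels, S100A9 and S100A4 in N-scr (3.0 and 2.61 FPKM, about 25 and 18 reads) were too close to tell apart by counting. In H-scr the same pair was listed at 31.7 and 24.5 FPKM. S100A16 and S100A14 also sat next to each other, with S100A16 exceeding S100A14 1.84 times in N-scr against 1.70 times in N-si, then 1.24 times in H-scr against 1.05 times in H-si.

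**Figure D1:**
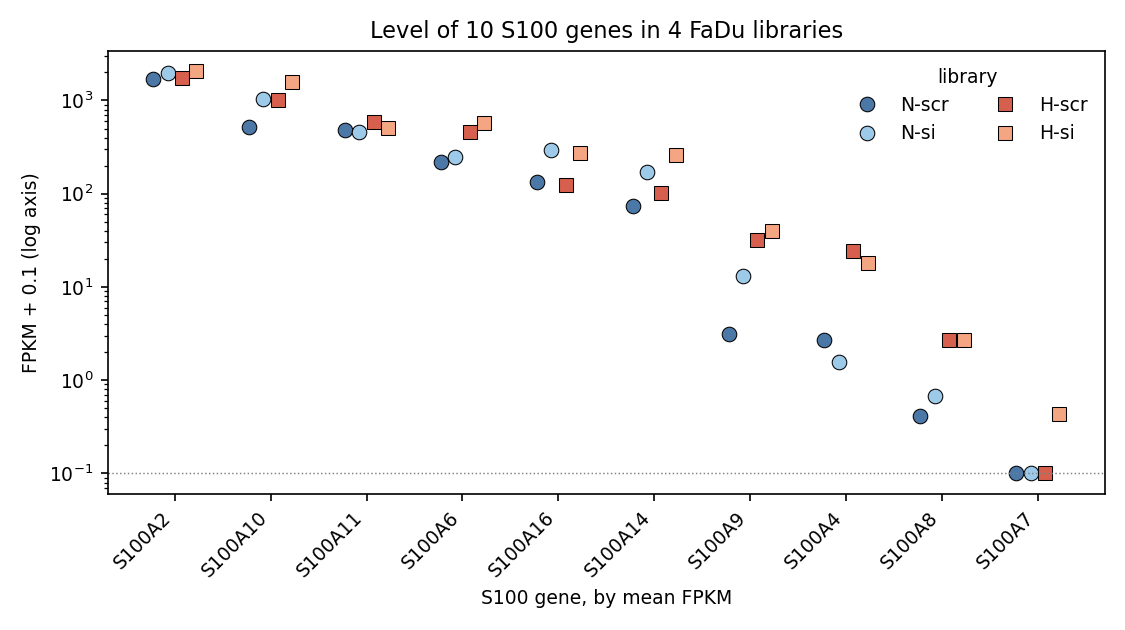
FPKM of the 10 members in the 4 libraries on a log axis, with 1 point per library and no error bar because each group has 1 library. S100A2 lies at 1688 to 2076 FPKM in every library, while S100A9 runs from 3.0 to 39.5 FPKM and S100A4 from 1.45 to 24.5.

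Under hypoxia 4 of the 9 members tested were higher in the scrambled cells and none was lower. These were S100A9, S100A4, S100A8 and S100A6, against a background of 12.9% of all genes called higher and 4.53% called lower in this comparison (H-scr against N-scr). The median change of the 9 members was 0.94 against 0.05 over all genes, and 8 of 9 lay above 0. S100A8 reached a mean FPKM of 1 only through the hypoxia libraries, so its place in this count was set by the change counted. Among the 8 members averaging at least 5 FPKM, 3 were higher, against 8.39% of the 10786 genes at that level. S100A4, at 2.61 FPKM in N-scr and 1.45 in N-si, reached that level only through the hypoxia libraries. The change counted therefore also set its place in the stricter count. Over all 13 S100 genes averaging at least 1 FPKM, members included, 4 were higher and the median change was 0.46.

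S100A9 (ENSG00000163220, chromosome 1, 153330330 to 153333503, plus strand, hg19) is the larger partner in calprotectin. It was listed at 3.0 FPKM in N-scr against 12.9 in N-si, then 31.7 in H-scr against 39.5 in H-si. N-scr stood lowest, N-si between, and both hypoxia libraries highest. In the scrambled cells the ratio was 10.6-fold (log2 change 3.36, counting interval 2.80 to 4.04), on about 25 reads in N-scr and 280 in H-scr.

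S100A4 (ENSG00000196154, chromosome 1, 153516089 to 153522612, minus strand) binds non-muscle myosin IIA and promotes cell motility. Its values were 2.61 FPKM in N-scr against 1.45 in N-si, then 24.5 in H-scr against 17.8 in H-si, so the normoxia and the hypoxia libraries were far apart in both knockdown states. The rise in the scrambled cells was 9.42-fold (log2 change 3.19, interval 2.53 to 4.02). Among the 15057 genes S100A4 moved from above 22.7% of them in N-scr to above 66.5% in H-scr. The annotated locus of S100A4 contains S100A3 on the same strand, with 2044 bp shared, and S100A3 was listed at 3.48 FPKM in N-scr against 3.27 in N-si, then 5.51 in H-scr against 6.02 in H-si. Reads in the shared part could be assigned to either gene.

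S100A8 (ENSG00000143546, chromosome 1, 153362508 to 153363664, minus strand), the other subunit of calprotectin, was close to the limit of detection. It was listed at 0.31 FPKM in N-scr against 0.579 in N-si, then 2.63 in H-scr against 2.59 in H-si. On the canonical transcript these values amount to about 1, 3, 13 and 11 reads (5, 10, 44 and 39 by the length of all its exons). The ratio of H-scr to N-scr was 8.49 with a log2 counting interval of 0.87 to 9.01, and its size is therefore barely determined. S100A9 exceeded S100A8 in FPKM 9.67 times in N-scr against 22.3 times in N-si, then 12 times in H-scr against 15.3 times in H-si.

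S100A6 (ENSG00000197956, chromosome 1, 153507075 to 153508720, minus strand), also called calcyclin, is a calcium sensor of proliferating cells. It was listed at 219.7 FPKM in N-scr against 246.4 in N-si, then 461.3 in H-scr against 567.8 in H-si. Its change was the smallest of the 4 called, at 2.10-fold in the scrambled cells (log2 change 1.07, interval 0.97 to 1.17). It was also the most precisely counted, on about 1112 reads in N-scr and 2497 in H-scr. A long non-coding RNA on the opposite strand, BX470102.3, overlaps 517 bp of S100A6 and was listed at 0.514 to 2.94 FPKM. The sources used here do not state that strand was kept.

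The other members changed less with oxygen in the scrambled cells. S100A10 (ENSG00000197747, chromosome 1, 151955391 to 151966866, minus strand) was just under the threshold at 1.92-fold (log2 change 0.94, interval 0.90 to 0.99). Rescaling to TPM put S100A10 at 1.06 and raised the count of members called higher in scrambled cells to 5. S100A14, an epithelial member, was 1.38-fold and S100A11 0.30 on the log2 scale above normoxia. S100A2 was nearly level at 0.04, and S100A16 was listed slightly lower at -0.11, with interval -0.19 to -0.04. The direction of these last values depends on the scaling, since S100A2 came to -0.01 with median-of-ratios scaling and S100A16 to 0.00 when the columns were rescaled to TPM.

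**Figure D2:**
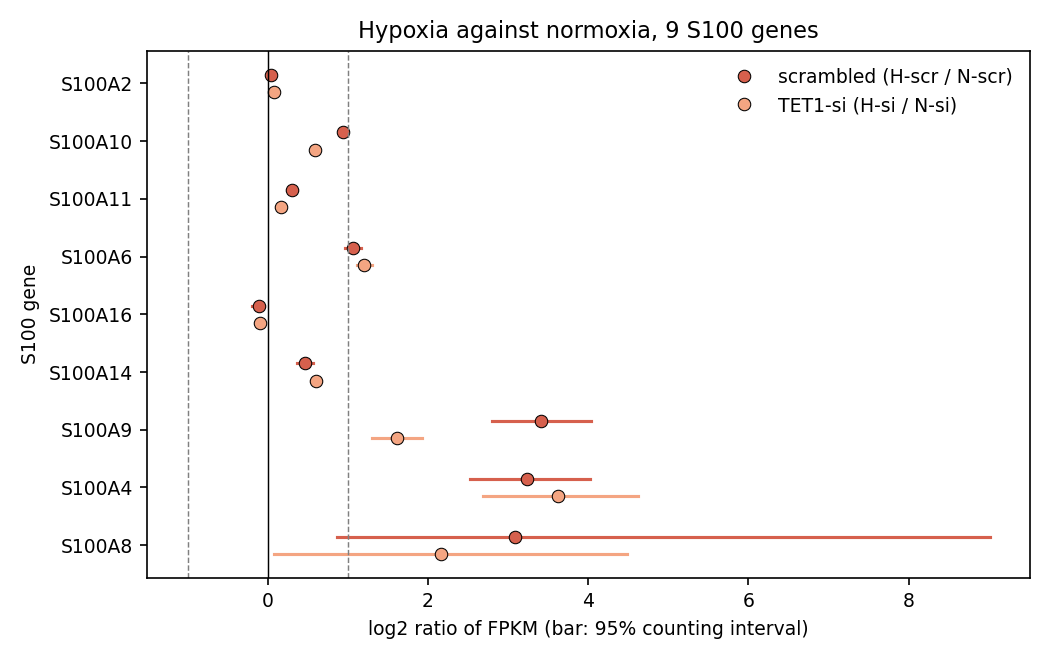
Change of each member under hypoxia on the log2 scale, without a pseudocount, in scrambled and in TET1-si cells, with points at the ratio of FPKM and bars for the 95% counting interval. S100A9 and S100A4 lie far to the right in scrambled cells, S100A8 has a bar that reaches from 0.87 to 9.01, and S100A2 and S100A16 lie near 0.

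In the TET1-si cells the same 4 members were called higher under hypoxia and none lower, against a background of 12.5% higher and 8.66% lower (H-si against N-si). At a mean FPKM of at least 5 it was 3 of 8 members, against 7.63% of genes. Here too S100A4 reached that mean only through the hypoxia libraries. The median of the 9 members was 0.61, that of all 13 S100 genes averaging at least 1 FPKM 0.60, and that of all genes 0.03. S100A4 had the highest fold here, 12.3 (log2 change 3.53, interval 2.69 to 4.62), S100A9 rose 3.06-fold (1.61, interval 1.30 to 1.93), S100A8 was 4.46-fold higher (1.98, interval 0.08 to 4.48) and S100A6 rose 2.30-fold (1.20, interval 1.11 to 1.30). S100A14 was 1.52-fold and S100A10 1.51-fold above normoxia, both short of the threshold.

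The hypoxia responses of the knockdown states were set against each other by subtracting the scrambled response from that of the TET1-si cells. S100A9 was the only member tested whose responses differed by at least 1, by -1.75, with 1 of 9 members lower against a background of 7.86% and 0 of 9 higher against 4.87%. Without the 0.1 the difference was -1.79, with an approximate counting interval of -2.46 to -1.12. S100A9 reached similar levels in the hypoxia libraries, 31.7 and 39.5 FPKM, and it was the normoxia levels, 3.0 and 12.9 FPKM, that lay apart. For S100A8 the difference was -0.75 with an interval of -4.09 to 2.24 around its value without the 0.1, -0.93, and for S100A4 0.35 with an interval of -0.76 to 1.53 around 0.38. S100A10 differed by -0.34, and S100A2, S100A6, S100A11, S100A14 and S100A16 by between -0.14 and 0.14. The median difference was 0.02 over the members and -0.06 over all genes. The difference uses all 4 libraries and was not tested, since there are no replicates.

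Knockdown of TET1 went with higher levels of an adjacent pair of epithelial members in both oxygen states. S100A14 and S100A16, whose genes neighbour each other on chromosome 1 at 153586731 to 153589462 (ENSG00000189334) and 153579362 to 153585644 (ENSG00000188643), both on the minus strand in hg19, were the members called higher under hypoxia (H-si against H-scr). That is 2 of 9 higher against a background of 12%, and 0 of 9 lower against 8.35%. In normoxia (N-si against N-scr) 3 of 9 were higher, S100A9, S100A14 and S100A16, against a background of 12.1%, and 0 of 9 lower against 5.56%.

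S100A14 was listed at 73.3 FPKM in N-scr against 172.2 in N-si, then 101.0 in H-scr against 262.3 in H-si. Both TET1-si libraries were above both scrambled libraries, and the share of all genes in this order was not computed. The ratio was 2.60-fold under hypoxia (log2 change 1.38, interval 1.30 to 1.45) and 2.35-fold in normoxia (1.23, interval 1.14 to 1.32).

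S100A16 was listed at 135.0 FPKM in N-scr against 293.3 in N-si, then 124.7 in H-scr against 274.7 in H-si. It was 2.20-fold higher under hypoxia (1.14, interval 1.07 to 1.20) and 2.17-fold higher in normoxia (1.12, interval 1.06 to 1.18). Unlike S100A14, its level moved little with oxygen in either knockdown state. With median-of-ratios scaling the normoxia change of S100A16 came to 0.95 and with upper-quartile scaling to 1.00, just under the threshold, which left 2 members called in normoxia, while both members stayed above 1 under hypoxia.

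S100A9 was 4.30-fold higher in N-si than in N-scr (log2 change 2.07, interval 1.46 to 2.78) but only 1.25-fold higher in H-si than in H-scr (0.32, interval 0.08 to 0.55). S100A10 was 1.99-fold higher in normoxia, a hair under the threshold (1.00, interval 0.95 to 1.04), and 1.57-fold higher under hypoxia (0.65, interval 0.62 to 0.69). Rescaling to TPM put it at 1.04 in normoxia and raised the count of members called there to 4. S100A8, at about 1 and 3 reads in normoxia, had a ratio of 1.87 with an interval of -2.15 to 7.20 on the log2 scale. S100A2 was 0.26 higher under hypoxia and 0.22 higher in normoxia on the log2 scale, and S100A6 was 0.30 and 0.17 higher, the last of which came to 0.00 with median-of-ratios scaling.

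The members below 0 for TET1-si were S100A4 and S100A11 in both oxygen states, with S100A8 at -0.02 under hypoxia, which became 0.04 after rescaling to TPM. S100A4 stood at -0.46 under hypoxia (interval -0.81 to -0.12) and at -0.81 in normoxia (interval -2.04 to 0.35), on about 181 and 120 reads and on 18 and 11 reads. S100A11 (ENSG00000163191, chromosome 1, 152004982 to 152020383, minus strand) stood at -0.21 and -0.07. Its processed pseudogenes S100A11P1 and S100A11P2 were listed at 0 in all 4 libraries, and how reads shared with such copies were assigned is not given in the sources used here.

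**Figure D3:**
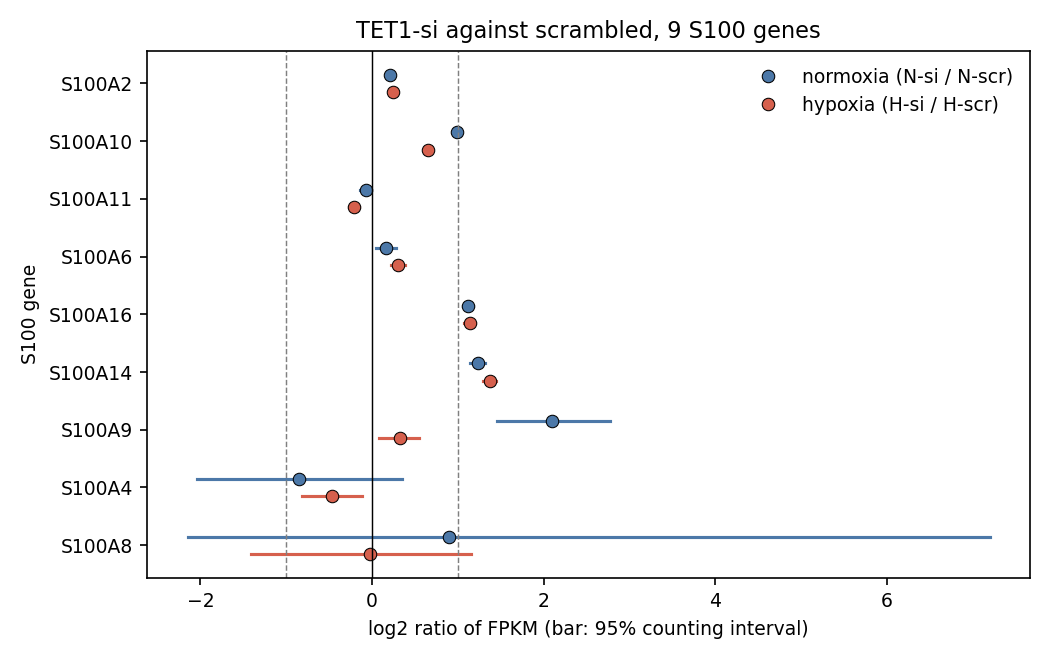
Change of each member with TET1-si on the log2 scale, without a pseudocount, under hypoxia and in normoxia, with points at the ratio of FPKM and bars for the 95% counting interval. S100A14 and S100A16 lie above 1 in both oxygen states, S100A9 lies above 1 in normoxia only, and S100A4 lies below 0.

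The median TET1-si change of the members was 0.30 under hypoxia and 0.73 in normoxia, beside 0.10 and 0.15 over all genes. Over all 13 S100 genes averaging at least 1 FPKM, members included, it was 0.26 and 0.22. Median-of-ratios scaling shifted all genes by -0.11 and -0.15 and left member medians of 0.18 and 0.59. The same scaling changed the split of all genes in normoxia from 1828 higher and 837 lower to 1419 higher and 1115 lower. The hypoxia and TET1-si comparisons share libraries, since each of the 4 libraries enters 2 of them, so their values for a member are not independent of each other.

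The study's RNA-Seq criteria for genes regulated by TET1 under hypoxia ask for an FPKM in H-scr above 2 times that in H-si, above that in N-scr, and an N-scr value at or above that in N-si. None of the 10 members met all 3, against a background of 4.33% of all 62077 rows. That share is 2687 rows, more than the number of genes the study itself reports, and the reason was not tested. Unlike the other backgrounds, this share was taken without the expression filter. A row listed at 0 in H-scr cannot meet the criteria, and 24372 rows were above 0 in H-scr. The share among genes averaging at least 1 FPKM is not given here, so the members cannot be set against expressed genes on this point. S100A4 and S100A11 met the 2 conditions on N-scr. Their H-scr values of 24.5 and 591.8 FPKM were 1.38 and 1.16 times those of H-si, and not 2 times. S100A4, the mesenchymal marker of the family, was 9.42-fold higher under hypoxia with the scrambled hairpin and 12.3-fold higher with TET1-si.

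All 10 members lie within a stretch of chromosome 1 that runs from THEM4 to CREB3L4 (151846060 to 153946839, 2100780 bp, hg19), with 13 other protein-coding genes that had a mean FPKM of at least 1 and belong to no S100 list. Of these 13, 2 were higher under hypoxia in scrambled cells and 0 lower, and 2 were higher and 1 lower in TET1-si cells. The shares over all genes were 12.9% higher and 4.53% lower, then 12.5% and 8.66%. The 2 in scrambled cells were SPRR1A and SPRR1B, which reached a mean FPKM of 1 only through H-scr, so the change counted also set their place in the count. The 1 lower was ILF2 (-1.08), a call lost with upper-quartile scaling and with TPM. For TET1-si the counts were 1 higher with 2 lower in hypoxic cells (12% and 8.35% of all genes), then 4 higher with 0 lower in normoxic cells (12.1% and 5.56%). The 1 higher in hypoxic cells was THEM4, and the 2 lower were SPRR1A and SPRR1B. As SPRR1A and SPRR1B passed the filter only through H-scr, the change counted again set their place. Their median changes were 0.31, 0.24, 0.25 and 0.36 in that order of comparisons, of which the medians for TET1-si came to 0.13 and 0.19 with median-of-ratios scaling. In normoxia 12 of the 13 lay above 0 with TET1-si, as did 7 of the 9 members and 60.3% of all genes. The 4 higher with TET1-si in normoxia were SPRR1A, SPRR1B and the genes at both ends of the stretch. THEM4, a mitochondrial thioesterase, stood at 7.90 FPKM in N-scr against 24.0 in N-si. CREB3L4, a membrane-bound transcription factor, stood at 9.26 and 26.3. The stretch was drawn by these end genes with earlier results of the data known, so the choice of bounds also set this count in part. The cornified envelope genes SPRR1A and SPRR1B were called in normoxia on low values: SPRR1A was listed at 0 FPKM in N-scr against 0.596 in N-si, then 7.42 in H-scr against 0.673 in H-si, and SPRR1B at 0.107, 0.401, 3.55 and 1.24. S100A13, which lies beside S100A14, was nearly level at 119.4 FPKM in N-scr against 120.7 in N-si, then 125.8 in H-scr against 128.6 in H-si.

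**Figure D4:**
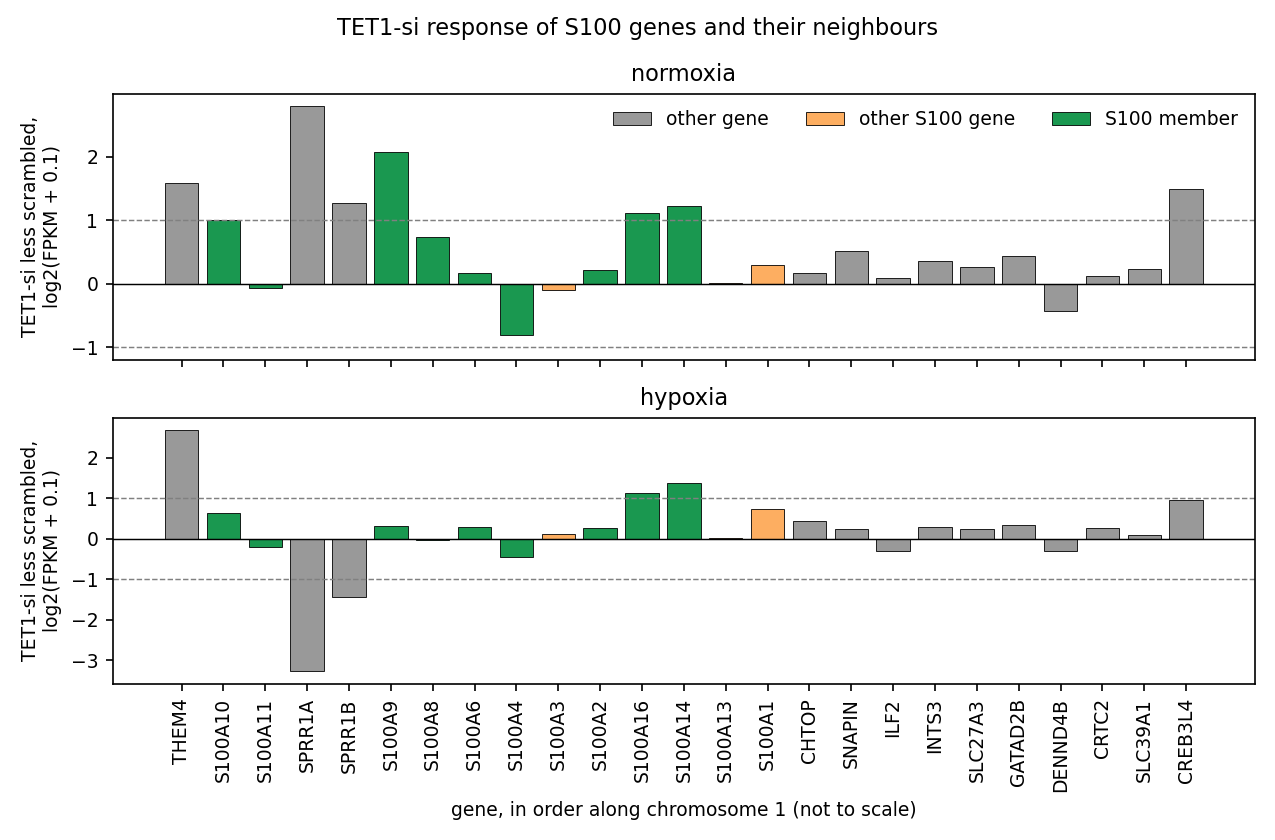
Log2 change of S100 and neighbouring genes averaging at least 1 FPKM, in their order along chromosome 1, in TET1-si less scrambled cells, for normoxia (upper panel) and hypoxia (lower panel), with dashed lines at the 2-fold threshold. S100A14 and S100A16 lie above 1 in both oxygen states, while S100A13 beside them lies at about 0.

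Binding partners and receptors of the family were read from the same table. Of 15 listed, 14 had a mean FPKM of at least 1, and TLR4, a receptor of calprotectin, was listed at 0 in all libraries. Under hypoxia 1 was higher and 1 lower in each knockdown state, beside all-gene shares of 12.9% and 4.53% with the scrambled hairpin, then 12.5% and 8.66% with TET1-si. CACYBP, a ubiquitin ligase adaptor that binds S100A6, was the one lower in both, at 467.7 FPKM in N-scr against 527.4 in N-si, then 226.6 in H-scr against 199.8 in H-si, opposite in direction to S100A6. Its call in scrambled cells (-1.04) was lost after rescaling to TPM, which gave 0 partners lower there. PLAT, the plasminogen activator that S100A10 can help to localise, was higher in scrambled cells, going from 19.5 FPKM in N-scr to 101.4 in H-scr, but only from 18.3 in N-si to 28.1 in H-si. AHNAK, a scaffold that S100A10 and annexin A2 bind, was called in TET1-si cells (log2 change 1.15) and sat just below the threshold in scrambled cells (0.98), where 2 partners were higher with upper-quartile scaling and with TPM.

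With TET1-si, 3 of the 14 partners were called lower in hypoxic cells, beside 8.35% of all genes, and 2 in normoxic cells, beside 5.56%. The latter became 3 with median-of-ratios and upper-quartile scaling. MYH9, the heavy chain of the myosin that S100A4 binds, was lower in both, at 311.4 FPKM in N-scr against 145.5 in N-si, then 397.6 in H-scr against 167.3 in H-si. ANXA6, an annexin, was also lower in both (8.22 and 2.83, then 6.08 and 1.63 FPKM), and PLAT was lower under hypoxia. Annexins A1 and A2 changed by less than 2-fold in every comparison. The ratio of ANXA2 to S100A10 FPKM went from 2.96 in N-scr to 1.86 in N-si, and from 2.05 in H-scr to 1.04 in H-si, where ANXA2 itself was at -0.32 on the log2 scale against H-scr. The receptor AGER was listed at 8.46 FPKM in N-scr against 10.3 in N-si, then 10.7 in H-scr against 19.2 in H-si, below 2-fold in each comparison.

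Markers of cell types were read beside these results. The 7 squamous epithelial markers all had a mean FPKM of at least 1. KRT5, KRT14 and KRT6A were lower in TET1-si cells in both oxygen states, with KRT14 at 42.1 FPKM in N-scr against 0.487 in N-si, then 99.9 in H-scr against 1.41 in H-si, and KRT6A at 67.7, 0.394, 109.2 and 0.357. KRT17 stood at -0.62 under hypoxia and -0.98 in normoxia with TET1-si on the log2 scale, and 1 further marker stood at -0.04 and -0.27. The adhesion genes EPCAM (0.68 and 0.41) and CDH1 (0.45 and 0.57) lay above 0, as S100A14 and S100A16 did, and neither passed the threshold. The part of these changes in the values of S100A14 and S100A16 was not tested. For S100A8 and S100A9, which myeloid cells also make, the 6 myeloid markers summed to 2.86 FPKM in N-scr against 4.55 in N-si, then 4.35 in H-scr against 5.93 in H-si, and 2 of 6 had a mean FPKM of at least 1. CD14 was listed at 1.44 FPKM in N-scr against 3.43 in N-si, then 1.76 in H-scr against 3.46 in H-si. ITGAM was at 1.12 FPKM in N-scr against 0.994 in N-si, then 2.17 in H-scr against 2.25 in H-si, a hypoxia ratio of 1.94 with the scrambled hairpin and of 2.26 with TET1-si. LYZ and CSF1R were listed at no more than 0.296 FPKM in any library. PTPRC, which encodes CD45, was listed at 0 in all but H-si, where it stood at 0.0101 FPKM, and MPO was listed at 0 in all 4. The part of myeloid transcripts in the S100A8 and S100A9 values was not tested. For S100A4, the 5 fibroblast markers summed to 5.30 FPKM in N-scr against 14.1 in N-si, then 28.7 in H-scr against 37.2 in H-si. Nearly all of this was COL1A1, while COL1A2 was listed at 0 in all libraries, and the part of fibroblast transcripts in the S100A4 values was not tested. Of the 4 melanocyte markers 1 had a mean FPKM of at least 1, and their sum ran from 2.73 FPKM in N-scr to 8.54 in H-si. As these are bulk samples, more cells that make a transcript and more transcript per cell cannot be told apart.

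Among the 9 members tested, S100A4 had the widest range over the libraries, 3.99 on the log2 scale, then S100A9 with 3.68, S100A8 with 2.74 and S100A14 with 1.84, while S100A2 had 0.30. The profiles of the 4 libraries, centred on each gene's mean, put S100A2 and S100A11 nearest to each other (distance 0.423), as well as S100A10 and S100A14 (0.587). The member nearest to S100A16 was S100A14 (0.665), and S100A8 was nearest to its partner S100A9 (0.985). Genes outside the family with a profile among the 5 most like that of S100A4, out of 9457 protein-coding genes averaging at least 5 FPKM, were PLEKHG6 (0.54), KLHL24 (0.95), LY6D (0.97) and WNT4 (0.979). PLEKHG6 was listed at 1.21 FPKM in N-scr against 1.15 in N-si, then 14.8 in H-scr against 9.76 in H-si. With 4 libraries such a likeness is a description only.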

How the data were processed

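RNA of 4 FaDu cultures was sequenced, 1 library per group. No test was run: the groups have no replicates, and a fit of oxygen and knockdown as additive effects, which would leave 1 residual degree of freedom, was not made. Per the labels and the study's methods, the authors made TruSeq mRNA libraries, read 100 bp on a HiSeq instrument (single end in the labels, paired end in the methods), and used TopHat and Cufflinks with Ensembl annotation on hg19 to deposit FPKM per gene. Versions are not given in the sources used here. Start positions in the table count from 0, and 1 was added.

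Depth was recovered from 18321 single-exon genes as the value that made low FPKM whole read numbers (95.6 to 96.7% within 0.05), which also gave a length offset of 214 bp. Approximate reads used the canonical transcript of GENCODE v44lift37 less this offset. S100 transcripts are short, so these read numbers depend on the length taken: S100A8 in N-scr came to 1 read, or 5 by the length of all its exons. The procedure was tested on simulated data.

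Changes used log2(FPKM + 0.1), and the 232 rows whose gene ID is repeated were left out of them. Python 3.11.15 with pandas 2.3.3 and SciPy 1.17.1 was used. The rule for named genes took all 10 members, the other S100 genes, 15 partners and receptors, the fused-type genes, the chromosome 1 neighbours and the 5 profiles most like the member with the widest range. Members and lists were chosen with earlier results of these data known. Alternatives covered the pseudocount, the filter, 3 scalings and the fold. Protein sequences were not analysed here. Some values of the named lists are not reported here.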

Additional observations from a re-analysis of the deposited data

How the results depend on the processing

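Member counts were recomputed with a pseudocount of 1 or none, no filter or a mean FPKM of at least 5, 3 other scalings, and folds of 1.5 and 3. Of these recomputed counts, 85 stayed within 1.5 times the reported count and 5 did not. Many of the 85 are counts of 0 that stayed 0, which a limit of 1.5 times cannot grade. Also among the 85 is the count of members higher with TET1-si in normoxia. It was 3 as reported, 2 with median-of-ratios and upper-quartile scaling, and 4 with TPM. The count of members higher under hypoxia in scrambled cells, 4 as reported, was 5 with TPM. A fold of 1.5 gave 5 members higher and 1 lower with TET1-si in normoxia. A fold of 3 gave 1 member higher with TET1-si in normoxia and 0 under hypoxia. Without the filter, 1 member (S100A7, on about 2 reads in H-si) had a hypoxia response higher by at least 1 in TET1-si cells. No called change of a member turned its direction. No paired analysis was possible because each group holds 1 library and so shares a single replicate number with the others. Treating the knockdown states or the oxygen states as pairs was not run. Depth limits S100A8 and S100A7, and the lack of replicates limits every value.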

Other observations

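Of the 11 other S100 genes of the list, S100A7A, S100A7L2, S100A12, S100B, S100G and S100Z were listed at 0 in all 4 libraries, and 4 had a mean FPKM of at least 1 (S100A13, S100A1, S100A3 and S100P). None of these 4 was 2-fold higher or lower under hypoxia. S100P, a member encoded outside the chromosome 1 cluster, was listed at 4.07 FPKM in N-scr against 1.55 in N-si, then 2.16 in H-scr against 1.57 in H-si, and was the 1 called lower with TET1-si in normoxia, on about 24 and 10 reads. S100A1 was listed at 5.74 FPKM in N-scr against 7.10 in N-si, then 6.19 in H-scr against 10.4 in H-si.

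The 7 S100 fused-type genes, which join an S100 domain to long repeats and serve the cornified layer of skin, all had a mean FPKM under 1. Their summed FPKM was 1.29 in N-scr against 1.15 in N-si, then 2.41 in H-scr against 2.34 in H-si. FLG, which encodes filaggrin, was listed at 0.0937, 0.175, 0.457 and 0.488 FPKM in the same order, on about 27, 54, 141 and 138 reads.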
